A study of Mus musculus with 14 samples.

Results

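The 8 genes *Mrc1*, *Cd163*, *Lyve1*, *Cd209b*, *Cd209f*, *Pf4*, *Cbr2* and *Stab1* are markers of border-associated macrophages, and they were taken by name from the 33939 genes measured in CD11b+ cells of the mouse brain after traumatic brain injury (TBI). All 8 were found in the table, and all 8 passed the filter on low values in every comparison. CD11b+ microglia/macrophages were isolated with magnetic beads from the injured, ipsilateral (IL) hemisphere and the uninjured, contralateral (CL) hemisphere 3 days after TBI, and bulk Smart Seq v4 libraries were made from their RNA. Ctrl mice carried Cx3cr1-CreER+/-, and conditional knockout (cKO) mice carried Cx3cr1-CreER+/- with a homozygous floxed target allele. Both groups were on C57BL/6, aged 8 to 12 weeks, male by the study's account, and treated with tamoxifen. The 14 libraries came from 8 mouse numbers, with 4 libraries each of Ctrl CL and Ctrl IL (mice 3541, 3545, 3546 and 3551), 3 of cKO CL (788, 791 and 3592) and 3 of cKO IL (784, 791 and 3592). The Cx3cr1 promoter that drives the Cre recombinase is active in microglia and also in other brain macrophages, so a change of genotype was not limited to microglia by design, and no uninjured animal entered. Meninges were removed before the cells were dissociated by the study's account.

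Border-associated macrophages are the resident macrophages of the meninges, the choroid plexus and the spaces around cerebral vessels. They share CD11b with microglia and so pass the same bead sort, but they are known by scavenger and lectin receptors that homeostatic microglia lack, among them the mannose receptor, CD163 and LYVE1. They take up proteins and debris from the fluid that borders the brain parenchyma.

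Levels are given in CPM, a gene's read count per 1e+06 gene-assigned reads of its library. Depth taken from the values ranged from 12.2 M to 41.6 M reads (median 34.2 M, where M stands for 1e+06), and the lowest was Ctrl IL mouse 3546. The microglial purine receptor *P2ry12* alone was at 1423 to 5416 CPM, whereas the 8 genes together summed to 233 to 1052 CPM. Shares of cell types in the sort were not measured. Because the libraries are bulk, fewer border-associated macrophages and less RNA of a gene per cell cannot be told apart. Changes below are log2 fold changes of CPM + 1 from limma, and a gene was called where its p, adjusted by Benjamini-Hochberg over all genes tested, was at most 0.05 and its level changed by 1.2 times or more.

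The 8 genes lie on 7 chromosomes (GRCm38), and only *Cd209b* and *Cd209f* share one. *Mrc1* occupies chr2:14229392-14332057 (plus strand), *Pf4* chr5:90772435-90773383 (plus), *Cd163* chr6:124304656-124330527 (plus), *Lyve1* chr7:110850607-110863239 (minus), *Cbr2* chr11:120729489-120732114 (minus) and *Stab1* chr14:31139013-31168641 (minus). *Cd209b* at chr8:3917655-3926844 and *Cd209f* at chr8:4102787-4105835, both on the minus strand, belong to the Cd209 cluster of C-type lectin genes. All 8 are protein coding, and the values count reads over the whole gene, so they do not separate exons or isoforms. No gene shared a stretch of at least 100 bases at 95% identity or more with a transcript of another gene, but *Cd209f* matched *Cd209g* over 1179 bases at 90.2% and *Cbr2* matched *Gm11771* over 736 bases at 89.0%, so some reads of these pairs may have been shared among copies. Exons of *Stab1* overlapped those of *Nt5dc2* by at most 112 bases.

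The sequence upstream of the start is shown for 4 genes, *Cd209b* as the gene with the largest fall, *Mrc1* as a widely used marker, and *Pf4* and *Stab1* as the genes with higher means in the injured hemisphere. RefSeq windows of GRCm38.p6 were read for 7 of the genes, without *Lyve1*, over the 250 bases before the start, and bases that the annotation places inside the gene are not printed. Letters searched on both strands were TATAAA for the TATA box, GAGGAAG for the core of the site of the myeloid factor PU.1, TGCTGA for the half-site of MAF factors and AGATAA for the core of the GATA site, and capitals mark a match, which reads CTTCCTC where the PU.1 core lies on the opposite strand.
Cd209b, chr8:3926845-3927091, minus strand: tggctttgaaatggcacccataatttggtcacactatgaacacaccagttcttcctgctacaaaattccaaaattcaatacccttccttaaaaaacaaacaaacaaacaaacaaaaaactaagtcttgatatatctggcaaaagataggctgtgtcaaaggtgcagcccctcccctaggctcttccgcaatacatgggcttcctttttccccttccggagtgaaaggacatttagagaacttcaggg
Mrc1, chr2:14229164-14229391, plus strand: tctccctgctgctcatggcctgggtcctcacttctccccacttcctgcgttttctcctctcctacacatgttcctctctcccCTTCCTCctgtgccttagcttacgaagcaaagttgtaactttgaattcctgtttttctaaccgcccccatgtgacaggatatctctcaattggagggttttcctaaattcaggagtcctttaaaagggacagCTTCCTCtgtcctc
Pf4, chr5:90772185-90772434, plus strand: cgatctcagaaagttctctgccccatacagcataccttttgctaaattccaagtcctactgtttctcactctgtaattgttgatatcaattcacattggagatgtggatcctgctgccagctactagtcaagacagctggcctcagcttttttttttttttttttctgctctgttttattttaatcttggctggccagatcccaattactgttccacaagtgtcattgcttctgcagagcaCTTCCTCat
Stab1, chr14:31168642-31168891, minus strand: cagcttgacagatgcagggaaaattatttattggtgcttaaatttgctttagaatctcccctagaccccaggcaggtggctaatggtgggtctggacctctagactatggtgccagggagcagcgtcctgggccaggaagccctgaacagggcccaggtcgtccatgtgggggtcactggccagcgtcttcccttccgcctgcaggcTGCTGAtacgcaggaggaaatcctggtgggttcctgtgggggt

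The PU.1 core was found in 3 of the 7 windows, those of *Mrc1* (at 2 places), *Pf4* and *Cbr2*, and in 10.6% of 32851 promoter windows of the same length. The match of *Cbr2* lies in bases that the annotation places inside the gene, so 2 of 7 genes, *Mrc1* and *Pf4*, had one upstream of the annotated gene. TATAAA was found in 1 of 7 (*Cd209f*), again inside the annotated gene and in 0 of 7 upstream of it, against 12.4% of all windows. The other searches found TGCTGA in 1 of 7 (*Stab1*) against 16.1%, and AGATAA in 0 of 7 against 9.99%. The windows of *Cd209b* and *Cd163* held none of these letters, and no matches overlapped. The matches are descriptions of these windows and no binding was measured.

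To learn how the injury changed these genes in mice without the floxed allele, IL was compared with CL in Ctrl. The lectin receptors *Cd209b* and *Cd209f* and the carbonyl reductase *Cbr2* fell in the injured hemisphere, by 4.49, 3.14 and 1.87 times, and they made 3 of the 8 genes called, all lower, against 6.60% of the 16377 genes tested and 2.96% called lower. The same 3 were the members whose IL and CL libraries did not overlap, against 17.7% of all genes and 11.4% with IL below CL. At an unadjusted p under 0.05 were 6 of 8, against 21.2% of all genes. The median log2 fold change of the 8 was -0.93, beside -0.04 over all genes tested.

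To ask the same of the cKO mice, IL was compared with CL among their 6 libraries. *Cd209b* and *Cd209f* fell again and were the 2 of 8 called, against 22.3% of the 16758 genes tested and 9.54% called lower, so the share of members called was close to that of all genes. Both also had IL libraries wholly below the CL libraries, against 24.3% of all genes with that order and 42.4% without overlap in either order. At an unadjusted p under 0.05 were 3 of 8, against 36.6% of all genes. The median of the 8 was -0.30, beside 0.02 over all genes.

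Same-numbered CL and IL libraries came from the same animal, so each of the 6 mice with both hemispheres also served as its own control. With the mouse as a block, 6 of the 8 genes were called in Ctrl (*Mrc1*, *Lyve1*, *Cd209b*, *Cd209f* and *Cbr2* lower, *Stab1* higher), against 20.5% of all genes in that fit. In cKO, where only mice 791 and 3592 gave both hemispheres and the fit rests on 4 libraries, 5 of 8 were called (*Mrc1*, *Cd209b* and *Cd209f* lower, *Pf4* and *Stab1* higher), against 13.6% of all genes. With the mouse as a random effect over all 14 libraries, the same 6 were called in Ctrl but only *Cd209b* and *Cd209f* in cKO, against 23.0% and 16.8% of all genes. In each of the 6 mice *Mrc1*, *Lyve1*, *Cd209b* and *Cd209f* were lower in IL than in CL and *Stab1* was higher, and 14.9% of 18502 genes were lower and 13.9% higher in IL in all 6 mice.

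**Figure D1:**
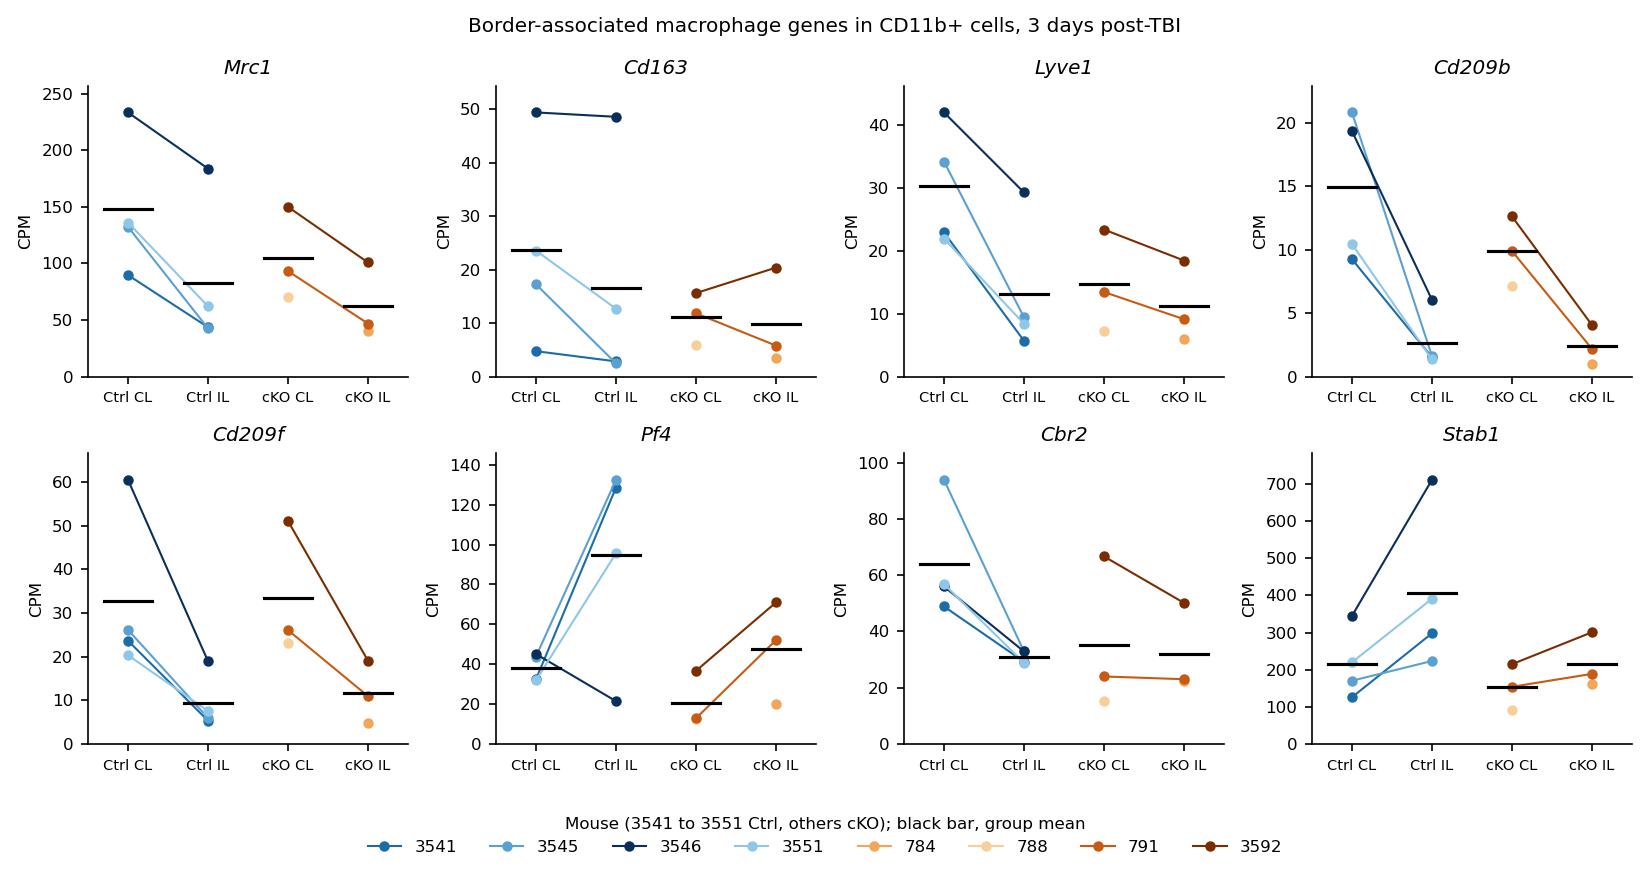
CPM of the 8 genes in each library (y axis, linear from 0) by group (x axis), with lines joining the CL and IL libraries of a mouse and black bars at the group means. The lines of *Cd209b* and *Cd209f* all descend from CL to IL, those of *Stab1* all ascend, and mouse 3546 in Ctrl and mouse 3592 in cKO lie highest for most genes.

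*Cd209b*, also known as SIGNR1, is a C-type lectin that binds carbohydrates on microbes and is used as a marker of perivascular and marginal zone macrophages. It was at 9.26, 20.8, 19.3 and 10.45 CPM in Ctrl CL (mice 3541, 3545, 3546 and 3551) and at 1.54, 1.62, 6.05 and 1.37 CPM in Ctrl IL in the same order. In cKO CL it was at 7.11, 9.90 and 12.6 CPM (mice 788, 791 and 3592), and in cKO IL at 1.02, 2.195 and 4.07 CPM (mice 784, 791 and 3592). Every IL library lay below every CL library, in both genotypes. The log2 fold change was -2.17 (SE 0.38, adjusted p = 0.00917) in Ctrl and -1.67 (SE 0.32, adjusted p = 0.00974) in cKO. *Cd209b* was the member called in each fit that left out 1 library, 8 of 8 in Ctrl and 6 of 6 in cKO. Within a mouse the CL level was 3.10 to 12.8 times the IL level. The lowest value, cKO IL mouse 784, corresponds to about 35 reads, the fewest behind any value of the 8 genes.

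*Cd209f* encodes another lectin receptor of the same cluster. It was at 23.7, 26.1, 60.5 and 20.3 CPM in Ctrl CL and at 5.35, 5.98, 19.0 and 7.58 CPM in Ctrl IL. The cKO libraries were at 23.2, 26.1 and 51.0 CPM in CL and at 4.91, 10.97 and 19.1 CPM in IL. The IL libraries again lay below all CL libraries of their genotype, and mice 3546 and 3592 were the highest in their groups on both sides. *Cd209f* fell by 1.65 on the log2 scale in Ctrl (SE 0.38, adjusted p = 0.0302) and by 1.45 in cKO (SE 0.42, adjusted p = 0.0411). These calls were less stable than those of *Cd209b*: leaving out 1 library kept the call in 2 of 8 fits in Ctrl and 1 of 6 in cKO, with adjusted p from 0.00391 to 0.0940 and from 0.0275 to 0.0958 over these fits. In the fit with the mouse as a block the adjusted p was 0.000687 in Ctrl and 0.00599 in cKO.

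Other genes of the cluster were measured too. *Cd209a*, *Cd209d* and *Cd209g*, 3 of 28 further genes listed as border-associated macrophage genes, were also lower in IL than in CL in each of the 6 mice. *Cd209g* at chr8:4134098-4137707 averaged 10.2 ± 4.27 CPM (SD, n = 4) in Ctrl CL and 2.86 ± 1.73 CPM (n = 4) in Ctrl IL, and it was called in Ctrl (log2 fold change -1.54, adjusted p = 0.0213) but not in cKO without the block (-1.32, adjusted p = 0.0508). Blocked by mouse, *Cd209g* was called in cKO too (-0.97, adjusted p = 0.0342). *Cd209d*, at under 3 CPM throughout, was called in both genotypes without the block (-0.77 and -0.82) but not in cKO with the mouse as a fixed block (adjusted p = 0.0767), a fit of 4 libraries, while the random effect over all 14 kept the call (adjusted p = 0.00899). *Cd209a* was called in neither without the block (-1.47, adjusted p = 0.0559, and -0.48, adjusted p = 0.219). In the fit with the block it was called in Ctrl (adjusted p = 0.00414) and not in cKO (-0.42, adjusted p = 0.202). The remaining members of the cluster in the annotation, *Cd209c* and *Cd209e*, which were looked up after these values were seen, reached at most 1.24 and 0.775 CPM. Both were lower in IL in 5 of the 6 mice and higher in mouse 791, and these values are given with no test.

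**Figure D2:**
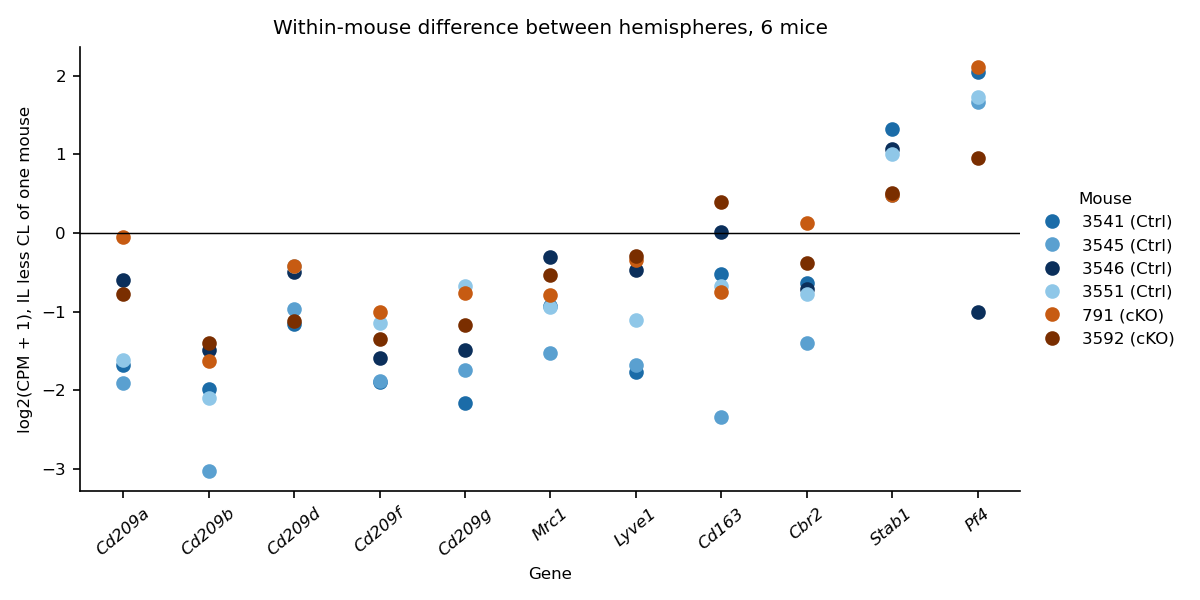
Difference of log2(CPM + 1) between IL and CL within each of the 6 mice (y axis, points coloured by mouse) for 5 *Cd209* genes and the other 6 genes (x axis). All points of the *Cd209* genes, *Mrc1* and *Lyve1* lie below 0 and all of *Stab1* above 0, and the single point of *Pf4* below 0, at -0.999, is mouse 3546.

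*Mrc1* encodes the mannose receptor CD206, an endocytic lectin that is also read as a marker of alternatively activated macrophages. It was at 89.8, 132, 233 and 136 CPM in Ctrl CL and at 43.8, 42.7, 184 and 62.3 CPM in Ctrl IL. Values in cKO were 70.7, 93.3 and 150 CPM in CL and 40.6, 46.9 and 101 CPM in IL. The groups overlapped because mouse 3546 stood high on both sides, at 184 CPM in IL against 62.3 CPM in the next highest, and mouse 3592 did so in cKO. Without the block *Mrc1* was not called in Ctrl (log2 fold change -0.95, 95% interval -1.81 to -0.09, adjusted p = 0.188) or in cKO (-0.69, -1.45 to 0.06, adjusted p = 0.167). Blocked by mouse it was called in both, at -0.95 (SE 0.18, adjusted p = 0.0105) in Ctrl and at -0.67 (SE 0.13, adjusted p = 0.0173) in cKO. Without the library Ctrl IL 3546 the unblocked value was -1.36 (adjusted p = 0.00665).

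*Lyve1*, a hyaluronan receptor shared by perivascular macrophages and lymphatic endothelium, was at 22.9, 34.2, 42.0 and 22.0 CPM in Ctrl CL and at 5.72, 9.44, 29.3 and 8.42 CPM in Ctrl IL. Values in cKO were 7.22, 13.5 and 23.4 CPM in CL and 5.97, 9.15 and 18.5 CPM in IL. In Ctrl only mouse 3546 kept the IL value among those of CL, whereas in cKO the hemispheres overlapped broadly. The log2 fold change was -1.28 in Ctrl (SE 0.39, adjusted p = 0.0836), called with the mouse as a block (adjusted p = 0.00724), and -0.28 in cKO (SE 0.43, adjusted p = 0.674), not called with the block (-0.32, adjusted p = 0.279). The difference between these changes was not called (genotype by hemisphere 0.99, 95% interval -0.38 to 2.37). Of the lymphatic endothelial markers, *Mmrn1* and *Reln* were under 1 CPM in every library, and the sum of 6 such markers was 8.77 to 15.5 CPM in Ctrl CL and 16.5 to 26.8 CPM in Ctrl IL. That rise was the podoplanin gene *Pdpn*, at 0.752 to 1.87 CPM in Ctrl CL and 9.18 to 17.4 CPM in Ctrl IL. Without *Pdpn*, a choice made after the values were seen, the other 5 summed to 8.01 to 13.6 CPM in Ctrl CL and 5.28 to 9.75 CPM in Ctrl IL, most of it *Prox1*. *Prox1* was called lower in Ctrl with the mouse as a block (-0.56, adjusted p = 0.0384), whereas *Flt4* had a positive, uncalled value there (0.39, adjusted p = 0.122), so the markers did not move in 1 direction. The part of lymphatic endothelium in the *Lyve1* values was not tested.

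*Cd163*, the scavenger receptor for haemoglobin bound to haptoglobin, varied widely between mice. It was at 4.78, 17.3, 49.4 and 23.6 CPM in Ctrl CL and at 2.87, 2.50, 48.6 and 12.7 CPM in Ctrl IL. The cKO libraries were at 5.87, 11.9 and 15.6 CPM in CL and at 3.45, 5.83 and 20.4 CPM in IL. The hemispheres overlapped in both genotypes and mouse 3546 was near 49 CPM on both sides. The log2 fold change was -0.90 (95% interval -2.69 to 0.88, adjusted p = 0.600) in Ctrl and -0.32 (-1.52 to 0.88, adjusted p = 0.701) in cKO, and the block did not bring it past the threshold (adjusted p = 0.114 and 0.697). Both intervals include 0 and are wide.

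*Cbr2*, carbonyl reductase 2, is an enzyme and not a surface receptor, listed among the genes of border-associated macrophages. It was at 48.9, 93.9, 56.0 and 56.8 CPM in Ctrl CL and at 29.3, 32.9, 32.9 and 28.9 CPM in Ctrl IL. In cKO it was at 15.3, 24.0 and 66.6 CPM in CL and at 22.6, 23.0 and 50.1 CPM in IL. The Ctrl IL libraries were close to each other and all below CL, whereas the cKO libraries of both hemispheres lay at similar levels apart from mouse 3592. The log2 fold change in Ctrl was -0.90 (SE 0.23) with an adjusted p of 0.0490, just inside the threshold, and the call was lost in each of the 8 fits that left out 1 library. With the mouse as a block the adjusted p was 0.00576. In cKO the value was 0.10 (95% interval -0.98 to 1.19), and the genotype by hemisphere term of 1.01 (SE 0.56) was not called.

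The scavenger receptor gene *Stab1* and the chemokine gene *Pf4* had higher means in IL. *Stab1*, which encodes stabilin-1, a scavenger receptor of resident macrophages and sinusoidal endothelium, was at 126, 171, 345 and 220 CPM in Ctrl CL and at 298, 224, 711 and 391 CPM in Ctrl IL. In cKO it was at 90.5, 154 and 215 CPM in CL and at 160, 189 and 301 CPM in IL. The hemispheres overlapped between mice, but IL exceeded CL within each of the 6, by 1.23 to 2.36 times. The log2 fold change was 0.95 (SE 0.31, adjusted p = 0.105) in Ctrl and 0.61 (SE 0.29, adjusted p = 0.170) in cKO, and with the mouse as a block both were called, at 0.95 (adjusted p = 0.00461) and 0.49 (adjusted p = 0.0420).

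*Pf4* encodes platelet factor 4, the chemokine CXCL4, stored by platelets and also made by border-associated macrophages. It was at 32.5, 43.9, 45.1 and 32.0 CPM in Ctrl CL and at 129, 132, 21.5 and 95.6 CPM in Ctrl IL. In the cKO mice it was at 12.6, 12.96 and 36.7 CPM in CL and at 19.9, 52.1 and 71.0 CPM in IL. IL exceeded CL by 1.93 to 4.02 times in 5 of the 6 mice, and mouse 3546 went the other way with the lowest Ctrl IL value. The log2 fold change was 1.08 (SE 0.55, adjusted p = 0.305) in Ctrl and 1.24 (SE 0.50, adjusted p = 0.109) in cKO. With the mouse as a block it was called in cKO (1.53, adjusted p = 0.00828) but not in Ctrl (adjusted p = 0.150), and without the library Ctrl IL 3546 it was called in Ctrl (1.74, adjusted p = 0.00162). With the mouse as a random effect *Pf4* was called in neither genotype. Among 8 platelet and megakaryocyte markers *Gp1ba*, *Gp1bb*, *Gp5*, *Treml1* and *Tubb1* were under 1 CPM in every library, *Ppbp* was at 0.187 to 0.802 CPM in Ctrl CL and 0.900 to 6.997 CPM in Ctrl IL, and *Ppbp* was called higher in Ctrl (1.71, adjusted p = 0.0363). The list summed to 24.4 to 29.6 CPM in Ctrl CL and 7.61 to 17.0 CPM in Ctrl IL, but *Gp9* alone made up 22.8 to 27.3 CPM of it in CL and 4.42 to 8.76 CPM in IL. Without *Gp9*, also chosen after the values were seen, the other 7 summed to 1.53 to 3.39 CPM in Ctrl CL and 3.19 to 8.28 CPM in Ctrl IL, and that difference was mostly *Ppbp*. Of the 5 genes of the list tested in Ctrl, *Ppbp* alone had a positive log2 fold change, and apart from *Gp9* the others were not called. The part of platelets in the *Pf4* values was not tested.

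**Figure D3:**
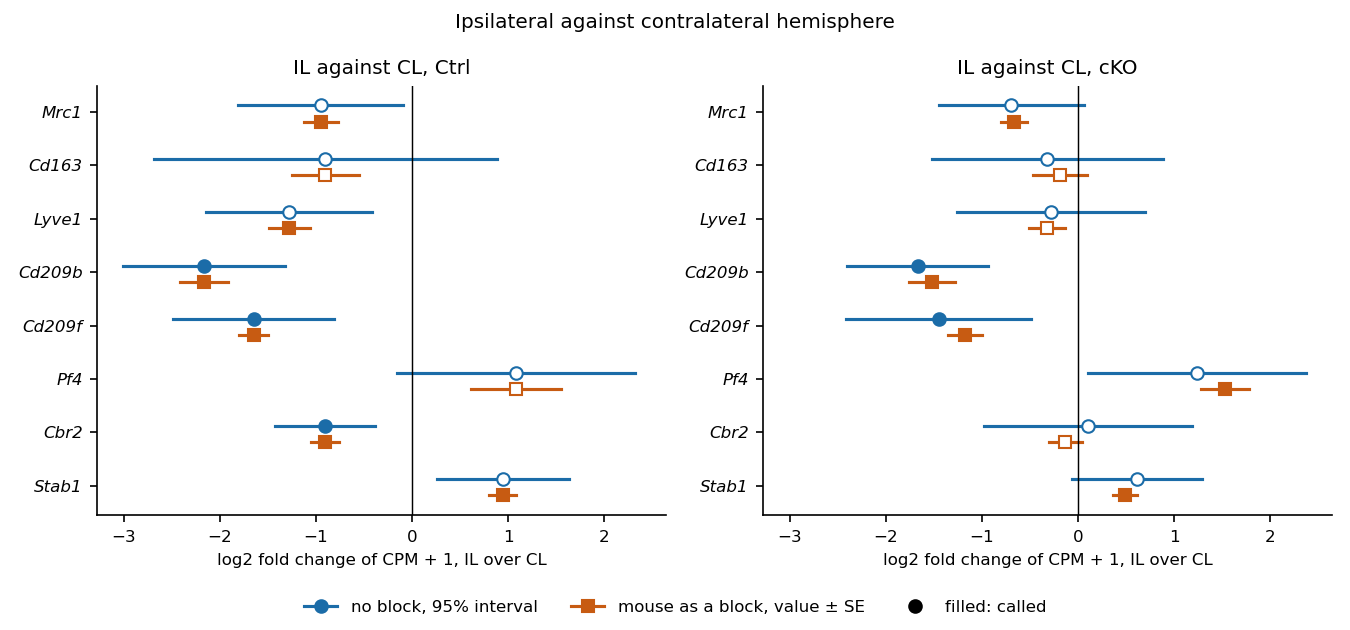
log2 fold change of CPM + 1, IL over CL (x axis), for the 8 genes (y axis) in Ctrl (left) and cKO (right), without a block (circles, 95% intervals) and with the mouse as a block (squares, SE), filled where called. *Cd209b* and *Cd209f* are filled in both panels under both fits, and *Mrc1* and *Stab1* only with the block.

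Per kilobase of exon, which allows levels of different genes to be compared, *Pf4* and *Cbr2* led in Ctrl CL at 53.2 ± 9.87 and 48.1 ± 15.3 CPM per kb (SD, n = 4), with ranges that overlapped each other but not that of *Mrc1*, the next at 23.2 ± 9.53. *Stab1* (21.0), *Cd209f* (16.4), *Lyve1* (10.4), *Cd209b* (7.08) and *Cd163* (4.35 CPM per kb) followed, and each range overlapped that of the next gene. In Ctrl IL the order was *Pf4* (131 ± 71.3), *Stab1* (39.5 ± 20.9), *Cbr2* (23.4 ± 1.67) and *Mrc1* (13.05 ± 10.6), and *Cd209b* was last at 1.25 ± 1.08. *Pf4* led in both cKO groups too, at 28.8 ± 19.2 in CL and 66.1 ± 35.8 CPM per kb in IL (n = 3 each). *Cd209b* moved from the seventh place in CL to the last in IL in both genotypes.

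To ask whether the conditional knockout altered these genes, cKO was compared with Ctrl within each hemisphere. In IL, 0 of 8 were called by limma against 0.662% of 16920 genes, and 1 of 8, *Stab1*, had an unadjusted p under 0.05 against 8.94% of all genes. *Stab1* averaged 217 ± 74.3 CPM (SD, n = 3) in cKO IL and 406 ± 215 CPM (n = 4) in Ctrl IL, a log2 fold change of -0.80 (95% interval -1.51 to -0.10, adjusted p = 0.454). The interval for *Mrc1* ran from -1.25 to 0.81 and that for *Cd209b* from -0.92 to 0.91, so differences of these sizes could not be resolved. The ranges of cKO and Ctrl overlapped for all 8 genes, beside 10.3% of all genes whose groups did not overlap.

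In CL, 0 of 8 were called against 0.873% of 16604 genes, while 3 of 8 had an unadjusted p under 0.05, against 9.79% of all genes, and all 3 had lower means in cKO. *Lyve1* averaged 14.7 ± 8.15 CPM (n = 3) in cKO and 30.3 ± 9.59 CPM (n = 4) in Ctrl (log2 fold change -1.09, 95% interval -1.85 to -0.34, adjusted p = 0.261). *Pf4* averaged 20.8 ± 13.8 and 38.4 ± 7.12 CPM (-1.02, -1.75 to -0.30, adjusted p = 0.277), and *Cbr2* 35.3 ± 27.5 and 63.9 ± 20.3 CPM (-1.06, -1.97 to -0.16, adjusted p = 0.393). For each of these genes the highest cKO library, mouse 3592, lay within the Ctrl range. Without the library cKO CL 3592, *Pf4* (-1.48, adjusted p = 0.0182) and *Cbr2* (-1.62, adjusted p = 0.0393) were called. With 2 libraries left in the group, these calls rest on a spread borrowed from the other libraries. The ranges of cKO and Ctrl overlapped for all 8 genes, against 9.99% of all genes without overlap. *Cd209f* was at 33.4 ± 15.3 CPM in cKO and 32.7 ± 18.7 CPM in Ctrl (0.07, -0.70 to 0.85).

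The test of whether the change from CL to IL itself differed between genotypes gave 0 of 8 members and 0 of 18502 genes by limma. None of the 8 had an unadjusted p under 0.05, beside 479 genes (2.59%). The widest estimates were *Cbr2* and *Lyve1* at 1.01 and 0.99, where the change was 0.10 in cKO and -0.90 in Ctrl for *Cbr2* and -0.28 and -1.28 for *Lyve1*, with intervals that include 0.

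Libraries of a group also differed by mouse. Mouse 3546 had the highest value of 6 of the 8 genes in Ctrl CL and of 6 in Ctrl IL, and mouse 3592 had the highest value of all 8 in both cKO groups. The lowest of all 8 were mouse 788 in cKO CL and mouse 784 in cKO IL. Less their group means, the log2 values of *Mrc1*, *Cd163*, *Lyve1*, *Cd209b*, *Cd209f* and *Stab1* moved together over the 14 libraries, with Pearson r from 0.72 (*Cd209b* with *Stab1*) to 0.93 (*Mrc1* with *Cd163*). *Cbr2* followed less closely (r = 0.22 with *Cd163* to 0.60 with *Lyve1*), and *Pf4* had r from -0.33 with *Cd163* to 0.55 with *Cbr2*. The points of these correlations share libraries, depth and, for 12 of them, a mouse, so they are descriptions with no test.

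**Figure D4:**
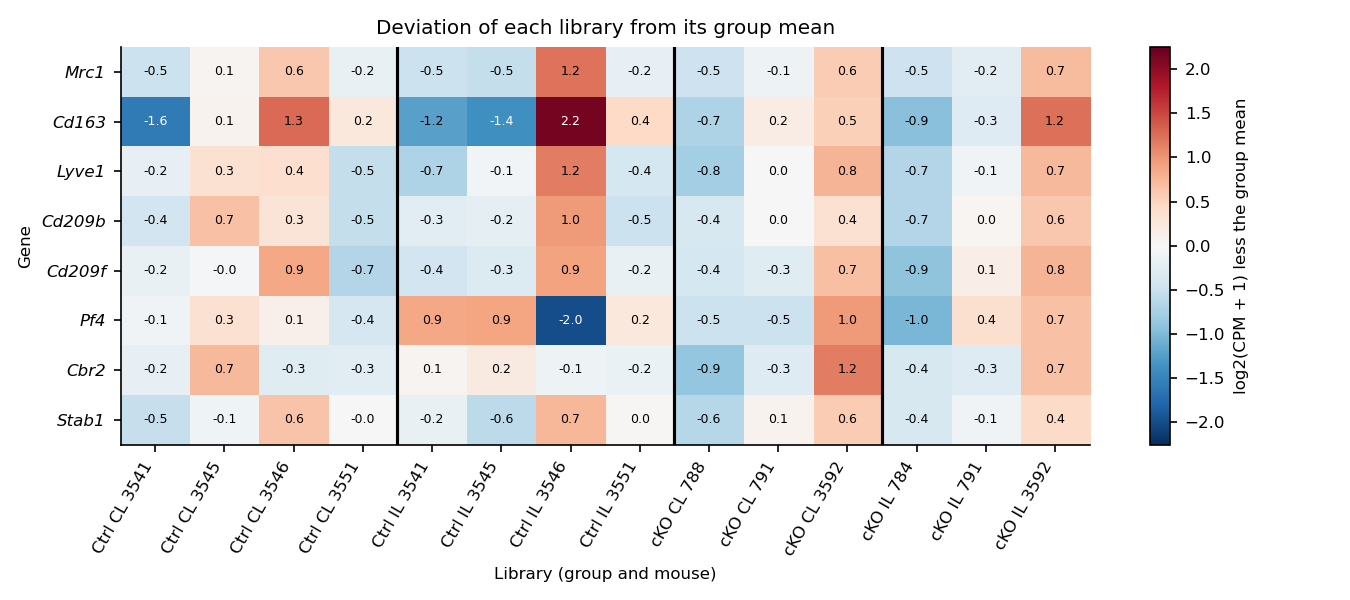
log2(CPM + 1) less the group mean (colour and printed value) of the 8 genes (rows) in the 14 libraries (columns, vertical lines between groups). Mouse 3546 is above its group means in 7 genes in CL and 6 in IL and reaches 2.16 for *Cd163* and -1.998 for *Pf4* in IL, and mouse 3592 is above for all 8 genes.

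Other marker lists were read in the same libraries. Mouse 3546 had the highest sum of 7 dendritic cell markers in Ctrl IL, 135 CPM, against a group median of 57.8 CPM. Its sum of 28 further border-associated macrophage genes was the highest on both sides. Its sum of 10 monocyte genes was the highest in IL (925 CPM), and *Fn1* alone made 686 CPM of it. There *Ccr2* (91.7 CPM) and *Itga4* (16.1 CPM) were also the highest of Ctrl IL, *Plac8* (4.42 CPM) was the lowest, and the rest lay between. Its sums of 6 lymphatic endothelial markers led their Ctrl groups (15.5 CPM in CL and 26.8 CPM in IL). It also led Ctrl IL for fibroblast (27.5 CPM) and neural (146 CPM) markers. For 12 homeostatic microglia genes it ranked 3 of 4, close to its neighbours (23378 CPM against 23394 and 22615 CPM in IL). Mouse 3592 had 116 and 82.3 CPM of 6 fibroblast markers in CL and IL, whereas the 12 other libraries had 5.70 to 27.5 CPM. The collagen gene *Col3a1* alone was at 70.7 and 47.2 CPM there and at 0.582 to 9.33 CPM in the 12 other libraries. In both cKO groups this mouse also had the highest sums of the 28 further macrophage genes (2274 CPM in CL and 3009 CPM in IL), the monocyte genes (335 and 813 CPM), the injury macrophage genes (4747 and 16724 CPM), the dendritic cell markers (68.7 and 79.99 CPM) and the neural markers (107 and 138 CPM). *Fn1* alone made 586 of the 813 CPM in IL. There *Ccr2* (93.8 CPM) and *Itga4* (12.4 CPM) were also the highest of cKO IL. *Ly6c2*, *Plac8*, *Chil3*, *Ms4a4c* and *F10* were the lowest there (13.6, 13.1, 30.8, 20.4 and 23.9 CPM). *Spp1* alone made 3133 and 12197 CPM of the injury macrophage sums. The library Ctrl IL 3546 was also the shallowest. The part of these cells and of depth in the members' values was not tested.

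Beside the fall of *Cd209b*, *Cd209f* and *Cbr2*, genes of homeostatic microglia fell too. Of 12 homeostatic genes 8 were called lower in Ctrl (median of the 12 -0.96) and 7 in cKO (-0.92), against 2.96% and 9.54% of all genes. Their summed CPM was 37916 to 46538 in Ctrl CL and 22615 to 24530 in Ctrl IL, without overlap. *Cd209b* and *Cd209f*, the members with the largest falls, changed by more than the homeostatic median in both genotypes. The median of all 8 members was -0.93 in Ctrl and -0.30 in cKO. Single homeostatic genes also fell by more than their median in Ctrl, such as *P2ry13* (-1.49) and *P2ry12* (-1.37). These differences were not tested. The 10 neutrophil genes had negative log2 fold changes in both genotypes, with medians of -2.53 in Ctrl and -1.29 in cKO. Of these 0 were called by limma in Ctrl (6 at an unadjusted p under 0.05) and 6 in cKO, with the mouse as a fixed block 8 and 7, and with the mouse as a random effect 8 and 0. Their sum was 1329 to 6790 CPM in Ctrl CL, highest in mouse 3541, and 843 to 1329 CPM in Ctrl IL. 7 of 8 genes of injury-responsive macrophages rose in each genotype, with sums of 1427 to 3107 CPM in Ctrl CL and 14650 to 27263 CPM in Ctrl IL. Of 10 monocyte genes 5 rose in Ctrl and 6 in cKO. In these fits 6.60% of all genes were called in Ctrl and 22.3% in cKO, in either direction. The part of these shifts in the members' CPM was not tested.

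The 28 further genes listed for border-associated macrophages, taken from the same kind of marker lists with earlier results of these data known, did not move in 1 direction. In Ctrl 14 of 28 were called, 9 higher and 5 lower in IL, and in cKO 15, 10 higher and 5 lower, with medians of 0.00 and 0.27. Of all genes tested 6.60% were called in Ctrl and 22.3% in cKO. With the mouse as a block 20 were called in Ctrl, 10 in each direction, and 16 in cKO, 12 higher and 4 lower, against 20.5% and 13.6% of all genes. Within mice 10 of the 28 were lower and 10 higher in IL in all 6, against 14.9% and 13.9% of all genes.

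Among those lower in IL were further lectins and enzymes. *Mgl2*, a galactose-type lectin of macrophages and dendritic cells, averaged 35.7 ± 8.56 CPM in Ctrl CL and 8.93 ± 4.96 CPM in Ctrl IL (log2 fold change -1.91, adjusted p = 0.00575), and the change in cKO was -1.93 (adjusted p = 0.00655). *Hpgd*, the prostaglandin-degrading enzyme, which microglia may also express, changed by -1.41 and -1.44 (adjusted p = 0.00417 and 0.00181). *Ccl24*, a chemokine for eosinophils, was called in Ctrl (-1.42, adjusted p = 0.0343) and not in cKO (-0.96, adjusted p = 0.0832), and the transcription factor gene *Maf* in cKO (-0.78, adjusted p = 0.0148) and not in Ctrl (-0.42, adjusted p = 0.277). *Slc40a1*, the iron exporter ferroportin, was called in cKO without the block (-0.83, adjusted p = 0.0308). With the mouse as a fixed block it was called in Ctrl (-0.52, adjusted p = 0.00657) and not in cKO (-0.67, adjusted p = 0.0554), and with the mouse as a random effect it was called in both (adjusted p = 0.0198 and 0.00914). No difference between genotypes was called for these genes.

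Those higher in IL were led by *Clec4n*, the lectin dectin-2, at 17.1 ± 4.47 CPM in Ctrl CL and 106 ± 31.4 CPM in Ctrl IL (2.62, adjusted p = 0.00187). *Tgfbi*, a matrix protein induced by TGF-beta, rose by 2.29 in Ctrl and 2.18 in cKO, and the fatty acid and lipoprotein receptor *Cd36* by 2.23 and 1.75. The endocytic adaptor *Dab2* changed by 1.78 and 1.96 and *Ms4a4a* by 1.66 and 1.76. All 5 were called in both genotypes, and they are also expressed by infiltrating or activated macrophages. In the comparisons of cKO with Ctrl 0 of the 28 were called in either hemisphere, with 10 of 28 in IL and 5 of 28 in CL at an unadjusted p under 0.05, against 8.94% and 9.79% of all genes.

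**Figure D5:**
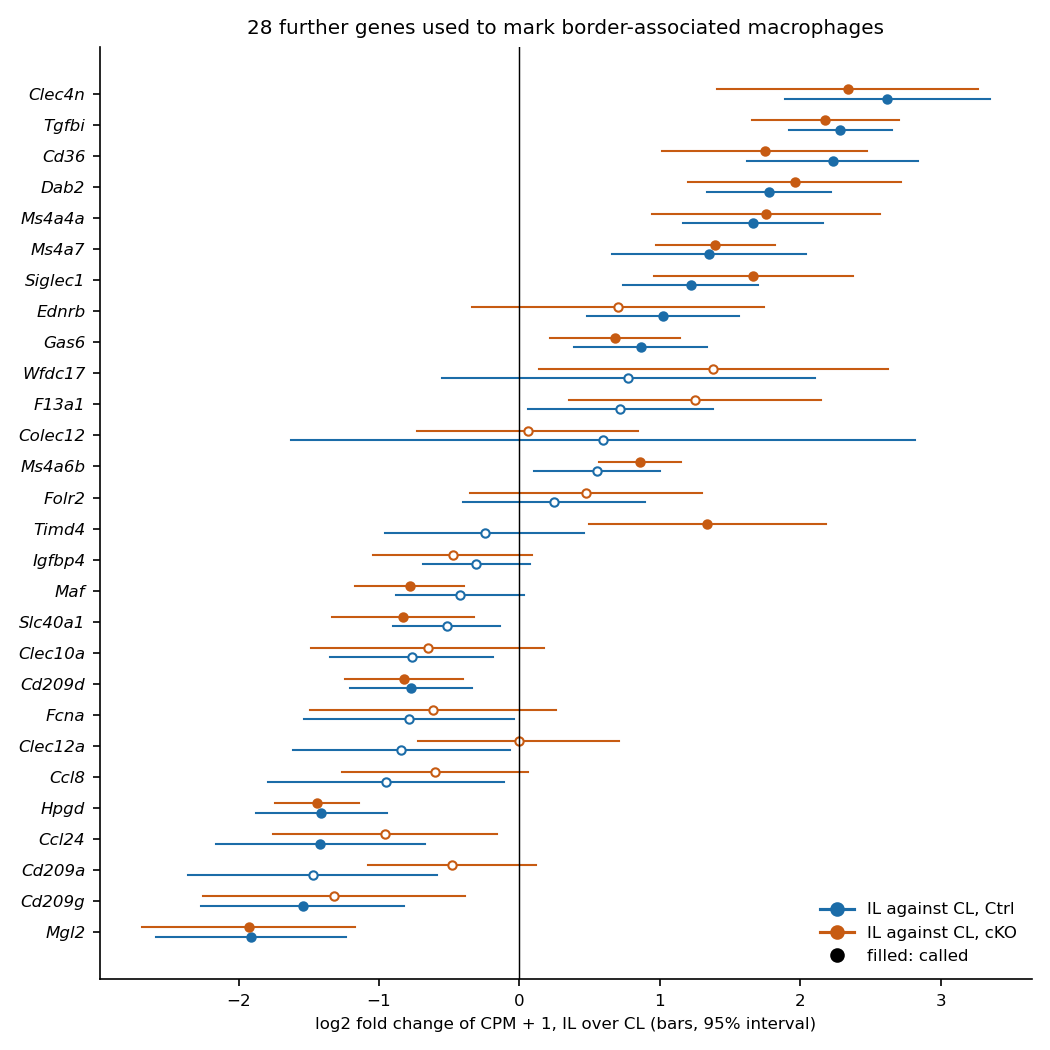
log2 fold change of CPM + 1, IL over CL (x axis, 95% intervals), of 28 further genes listed for border-associated macrophages (y axis, ordered by the Ctrl value) in Ctrl and cKO, filled where called. *Mgl2* at -1.91, *Cd209g* and *Cd209a* lie at the lower end and *Clec4n* at 2.62 at the upper end.

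Likeness to the 8 was ranked among 13468 other genes that passed the filter with a mean log2 value of at least 1. Of these, the genes whose log2 values followed the 8 most closely over the 14 libraries, by Pearson r with the mean of the 8 standardised values, were *Slc14a1* (0.91), *Rassf2* (0.91), *Tspan9* (0.91), *Ip6k1* (0.90), *Thra* (0.89), *Clec10a* (0.88), *Dync1li2* (0.88), *Hes1* (0.87), *Abcf3* (0.86) and *Kctd20* (0.86). With the group means removed, they were *Zkscan1* (0.94), *Agrn* (0.94), *Zfp697* (0.93), *F13a1* (0.92), *Clec10a* (0.92), *Hectd3* (0.92), *Tspan9* (0.91), *Tmem8* (0.91), *Slc37a2* (0.91) and *Rnf145* (0.90). *Clec10a* and *F13a1* are on the list of further border-associated macrophage genes, and *Clec10a* and *Tspan9* are in both sets of 10.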

How the data were processed

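Paired-end Smart Seq v4 libraries were sequenced on an Illumina NovaSeq, and the submitters' processing notes name STAR, Partek 8.0 and the mm10 build. The authors deposited 1 value per gene and library under the name raw counts; each library summed to 1e+06, so the deposited values were taken as CPM, and 78.9% to 83.5% of values under 100 reads were whole multiples of a step (tolerance 0.03), which gave the depth. Because the remaining values were fractions of reads, no count test was run, although the design had allowed for counts. Columns of the authors' own comparisons (p-values, FDR, ratios, fold changes and group means) were not used.

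Symbols were matched through GENCODE M21. Libraries were scaled by unweighted TMM factors (30% of M and 5% of A values trimmed). Genes entered with the CPM of 10 reads at median depth in a number of libraries equal to the size of the smaller group and at least 15 reads in total. limma 3.58.1 (R 4.3.3) with trend was fitted to log2(CPM + 1) of the libraries compared, which understates the change of low genes, and tested on simulated data. Genes named were the 8 members, the called genes of the list of 28 (at most 5 lowest and 5 highest per comparison), the 10 genes most like the members, and markers that moved with a member. The members, lists and tests were chosen with earlier results of these data known. Numbers 784 and 788 were taken as different mice. The p-values of the unblocked fits cover the spread between mice. Those with the mouse as a fixed block cover the spread of the difference of IL and CL within mice. In cKO that fit has mice 791 and 3592 alone and borrows spread from other genes. The mouse number pairs CL and IL libraries of an animal: deviations from group means correlated at r 0.182 to 0.607 in the 6 same-mouse pairs, and at -0.535 to 0.502 (median -0.215) in 19 other pairs, 784 IL with 788 CL being at 0.181. Transcripts were compared with blastn 2.17.0. Alternatives were other scalings, pseudocounts 0.5 and 0.1, no filter, single-library omission, 1 fit of all 14 libraries, and the mouse as a fixed block or as a random effect. The level of the gene targeted in the cKO mice is not reported here.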

Additional observations from a re-analysis of the deposited data

Results flagged for a closer look

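Mouse 3546 stood apart from the other 3 Ctrl mice in 6 of 40 groups of 4 libraries examined over 20 genes, by a gap to the nearest library of more than 0.829 of the group's range. Chance gives about 1 such group in 20 where groups are independent, which these are not. All 6 are the same mouse, and 5 are members whose values moved together, so that rate does not apply to their number. In Ctrl IL these were *Mrc1* (184 CPM, gap 0.862 of the range), *Lyve1* (29.3 CPM, 0.842), *Cd209b* (6.05 CPM, 0.947) and *Cd209f* (19.0 CPM, 0.837). In Ctrl CL they were *Cd209f* (60.5 CPM, 0.855) and *Ccl24* (25.8 CPM, 0.907). Groups of 3 cKO libraries were too small to be examined in this way.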

How the results depend on the processing

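The direction of IL against CL was kept for all 8 genes in Ctrl under each alternative and each single-library omission. Members called in Ctrl numbered 1 without the filter, 6 with the mouse as a replicate block (fixed or random effect), 6 without both libraries of mouse 3546 (an alternative chosen after seeing the data) and 1 to 5 with 1 library left out: 5 without IL 3546, 2 without CL 3551 and 1, *Cd209b*, without any of the others. The number of all genes called without both libraries of mouse 3546 is not given here, so that count of members cannot be read as a gain for the members. Genes called in Ctrl numbered 1081, and 582 without the filter, 2005 in 1 fit of all libraries, 3358 and 4256 with the fixed and random replicate block, and 498 to 1429 with 1 library left out. In cKO, members called were 1 without the filter, 1 in the single fit, 5 with the fixed replicate block and 1 to 3 with a library left out (3 without CL 3592 or IL 3592; 1 without CL 788, CL 791 or IL 791), and genes called were 3735, 1416 in the single fit, 2275 with the fixed block and 1875 to 3537 with a library left out. For cKO against Ctrl, genes called in IL were 112, 69 without the filter, 186 with the random block and 46 to 282 with a library left out; in CL they were 145, 95, 293 and 71 to 167, with 261 in the single fit, and members 0 to 2, the 2 without cKO CL 3592. The genotype by hemisphere term called 0 genes, 3 with the random block and 0 to 1 with a library left out. Without scaling, 43.4% of the Ctrl calls were higher in IL against 55.1%, and 43.4% against 57.2% in cKO.

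Values that changed sign were all uncalled. The replicate block turned *Cbr2* in cKO from 0.10 to -0.13 and *Cd209f* of cKO against Ctrl in CL from 0.07 to -0.045. With a library left out, IL against CL in cKO ranged from -0.92 to 0.16 for *Cd163*, -0.65 to 0.10 for *Lyve1* and -0.31 to 0.68 for *Cbr2*. cKO against Ctrl in IL ranged from -0.57 to 0.19 for *Mrc1*, -0.76 to 0.56 for *Cd163*, -0.44 to 0.30 for *Lyve1*, -0.30 to 0.31 for *Cd209b*, -0.092 to 0.73 for *Cd209f* and -0.37 to 0.13 for *Cbr2*, and in CL from -0.24 to 0.38 for *Cd209f*. The genotype by hemisphere term ranged from -0.10 to 0.61 for *Mrc1*, -0.037 to 1.26 for *Cd163*, -0.18 to 0.65 for *Cd209f* and -0.56 to 0.66 for *Pf4*. The cause was not tested. With 3 or 4 libraries a group, genotype differences of the size of the intervals given could not be resolved.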

Other observations

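2 genes of the list of 28 differed between mice or groups in ways outside the comparisons above. *Colec12*, a scavenger collectin, was at 19.7 to 130 CPM in Ctrl CL and 12.98 to 264 CPM in Ctrl IL, where mouse 3551 was the lowest on both sides, and at 8.22 to 21.8 CPM in the 6 cKO libraries. *Timd4*, a phosphatidylserine receptor of resident macrophages, ranged from 3.87 to 11.3 CPM among the cKO IL libraries and reached 4.34 CPM elsewhere; it was called in cKO (log2 fold change 1.34, adjusted p = 0.0343) and not in Ctrl (-0.25), the call in cKO was lost with the mouse as a fixed block (1.06, adjusted p = 0.104) and kept with the mouse as a random effect (1.26, adjusted p = 0.0204), and the difference was not called. Both were singled out after their values were seen.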
